A study of Mus musculus with 4 samples.

Results

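Ischemia-reperfusion (I/R) was compared with sham in the left ventricle of young mice, across all genes. The comparison uses 2 of the 4 libraries of the series, the I/R and the sham library of young mice, which were chosen by their labels and by no measured value. All mice were male wild-type C57BL/6J, and the young ones were 3 to 5 months old. In the I/R group the left anterior descending coronary artery was closed for 45 min and the ventricle was collected after 24 h of reperfusion. The control group is named sham in its sample title and in the study's text, and its treatment label describes healthy tissue with no alteration. The labels give nuclear RNA as the molecule, whereas the study's text describes cells. The labels list cardiomyocytes, endothelial cells, fibroblasts and macrophages for each sample, and the number of mice behind a library was not given in the sources used here. The 2 libraries of aged mice, 24 to 26 months old and treated in the same way, are given only beside the young values.

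Closing a coronary artery deprives the muscle behind it of oxygen, and reopening it returns oxygen together with a burst of oxidants. Cardiomyocytes die in the process, and neutrophils and then monocytes enter the tissue, while surviving cardiomyocytes next to the injury switch on stress and stretch genes. Collagen scar is laid down later, by activated fibroblasts.

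For each gene the unique molecular identifiers (UMIs, each a counted RNA molecule) were summed over all barcodes of a library and scaled to the library total as counts per 1000000 (CPM). The relative log2 ratio used throughout is the log2 ratio of CPM in I/R over CPM in sham, minus the median of that ratio over the 12465 of 32285 genes with at least 100 UMIs in the pair, called measured genes here. The median gene therefore lies at 0, and 1 on this scale is 2-fold. Each condition has 1 library, so there was no replicate error and no test, and a difference between conditions cannot be told apart from a difference between these libraries. The 95% intervals are exact intervals of the ratio for counting error only. Since whole ventricle was summed, a lower level of a cell type's genes can come from fewer such cells or from less RNA per cell, which cannot be told apart.

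The sham library held 25836175 UMIs in 92200 barcodes and the I/R library 39673199 UMIs in 102883 barcodes, with medians of 244 and 374 UMIs per barcode. Barcodes with at least 200 detected genes made up 28.4% of the sham and 55.2% of the I/R barcodes. They held 44.2% of the sham and 67.5% of the I/R UMIs, so the sham sums rest more on barcodes with few genes. In both libraries 2481 barcode sequences occurred, 2.69% and 2.41% of their barcodes. The 18 cardiomyocyte markers were all measured, at a summed level of 109938 CPM in sham and 98246 CPM in I/R, so the labelled tissue matched its defining genes. The female-specific RNA Xist had 30 UMIs in sham and 9 in I/R.

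Among measured genes, 703 (5.64%) were at least 2-fold higher in I/R and 1142 (9.16%) at least 2-fold lower, together 14.8%. At 4-fold the shares were nearly equal, with 157 genes higher (1.26%) and 159 lower (1.28%). The interquartile range was -0.48 to 0.43, and the 95% counting interval of a gene had a median width of 0.363. The direction of many small differences depends on the scaling. The median log2 ratio of CPM was -0.44 before it was subtracted, so a gene at equal CPM in the 2 libraries lies above the median gene, and with total UMIs as the scale 303 genes were at least 2-fold higher and 2748 lower. Each ratio then lies 0.44 lower, so genes and lists given here between 0 and 0.44 lie below 0 on that scale. The highest genes included acute-phase, neutrophil, metal-binding and wound matrix genes, and the lowest included cardiomyocyte regulatory genes and noncoding RNA. Counts from the gene lists below can be set beside the 5.64% and 9.16% of all measured genes. The lists were written with earlier results of these data known, so their counts are descriptions only.

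The most extreme ratios belonged to genes with few UMIs and wide intervals. Sprr1a, a structural protein of stressed epithelia and hearts, had 1 UMI in sham and 223 in I/R (7.62, interval 5.13 to 12.94). At the other end the unnamed transcript AA672651 had 285 and 8 (-5.33, interval -6.56 to -4.33). Both were singled out after their values were seen. The genes named as highest and lowest in the text are therefore taken from the 6213 measured genes that reached 20 CPM in at least 1 library and have a gene name rather than a model number. A gene that reached 100 UMIs only through the library in which it is high had to differ, so for lists with many unmeasured members the summed level of the whole list is given as well.

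**Figure D1:**
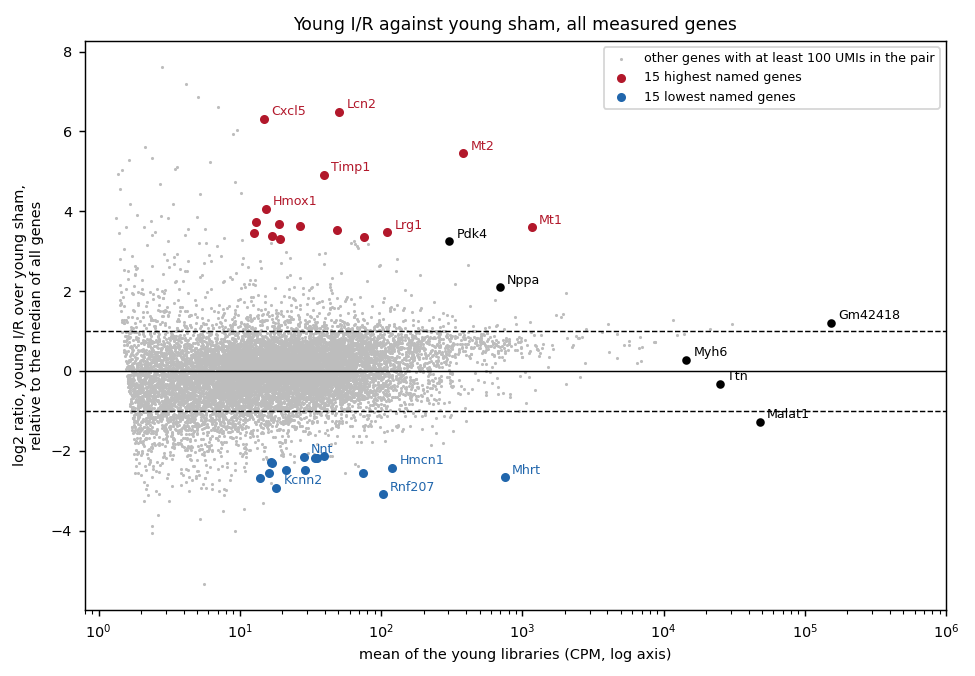
Relative log2 ratio of the young pair (vertical axis) against the mean CPM of the 2 libraries (horizontal log axis), 1 point per measured gene, with dashed lines at 2-fold. Red and blue points are the 15 highest and 15 lowest named genes, and black points are further genes described in the text. Most points lie between the dashed lines, Lcn2 (6.49) and Cxcl5 (6.31) lie highest among the red points, and Rnf207 (-3.09) lies lowest among the blue ones.

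Metallothioneins are small cysteine-rich proteins that bind zinc and copper and are switched on by metal, glucocorticoid and oxidant. Mt1 was at 235 CPM in sham and 2090.1 CPM in I/R, a relative log2 ratio of 3.59 (95% counting interval 3.56 to 3.63), or 12.1-fold. Mt2 was at 23.03 CPM in sham and 742 CPM in I/R, a ratio of 5.45 (5.34 to 5.57), or 43.8-fold. Mt1 was among the 10 genes with the largest gain in CPM of all measured genes. In the aged pair, Mt1 was at 227 CPM in sham and 458 CPM in I/R, and Mt2 at 27.7 and 97.5 CPM. The levels in the aged sham library lay near those in young sham, and the I/R level of each gene was lower in the aged library.

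The 2 genes are neighbours on chromosome 8, 5513 bases apart in the same orientation, Mt2 at chr8:94172664-94173568 and Mt1 at chr8:94179082-94180327, both on the plus strand in GRCm38 (GENCODE M21). Their promoters are shown because they carry the letters of the metal response element (MRE), TGCNCNC, to which the zinc-sensing factor MTF-1 is known to bind. The 250 bases before each RefSeq start are printed 5′ to 3′ on the plus strand of GRCm38.p6, with every match to TGCNCNC on either strand in capitals. The RefSeq starts lie 46 bases (Mt2) and 7 bases (Mt1) from those of GENCODE.
Mt2 (chr8:94172368-94172617): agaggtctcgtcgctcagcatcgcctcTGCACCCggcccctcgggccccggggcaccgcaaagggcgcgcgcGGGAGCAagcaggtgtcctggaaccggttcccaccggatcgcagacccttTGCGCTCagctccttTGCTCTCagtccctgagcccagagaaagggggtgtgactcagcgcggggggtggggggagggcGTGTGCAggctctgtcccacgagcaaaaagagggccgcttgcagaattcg
Mt1 (chr8:94178839-94179088): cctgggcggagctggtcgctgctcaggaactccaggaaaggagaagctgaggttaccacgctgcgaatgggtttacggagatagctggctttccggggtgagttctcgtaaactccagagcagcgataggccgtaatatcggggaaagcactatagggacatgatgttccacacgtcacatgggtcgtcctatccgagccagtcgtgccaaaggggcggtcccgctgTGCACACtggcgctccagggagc
The Mt2 window holds 5 matches, of which the farthest begins 223 bases and the nearest 50 bases before the start. The Mt1 window holds 1, beginning 23 bases before the start. Matches outside these windows were not counted, and the windows depend on the RefSeq start used. The 2 counts therefore do not compare the whole promoters. The letters are short and common. Of the 9350 measured protein-coding genes with a promoter in the RefSeq table, 52.5% had at least 1 match in this window, compared with 51.2% of the 527 that were at least 2-fold higher.

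Further genes of metal handling followed in part. Of 15 measured genes of metallothioneins and zinc transport, 6 were at least 2-fold higher and 0 lower, with a median of 0.69. Beside Mt1 and Mt2 these were zinc importers and exporters of the Slc39 and Slc30 families, among them Slc39a14 at 44.2 CPM in sham and 86.2 CPM in I/R (1.41) and Slc39a6 at 1.66. The exporter Slc30a7 (-0.11) and the importer Slc39a3 (-0.23) were at the low end. Mtf1, the gene of MTF-1 itself, was at 16.3 CPM in sham and 12.4 CPM in I/R, a ratio of 0.04 (-0.15 to 0.23).

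The highest ratio among genes that reached 20 CPM was that of Lcn2, which codes for lipocalin-2, a secreted protein that withholds iron from bacteria. Lcn2 (chr2:32384633-32388252, minus strand) was at 1.51 CPM in sham and 99.8 CPM in I/R, a ratio of 6.49 (6.04 to 6.98). It belongs to the acute phase and innate secreted proteins, of which 22 were listed and 9 measured. Of these, 7 were at least 2-fold higher and none lower, and the median was 3.63. Over the whole list the summed level was 141 CPM in sham and 315 CPM in I/R, a relative log2 ratio of 1.61. Serpina3n, a secreted protease inhibitor, was at 5.26 CPM in sham and 47.8 CPM in I/R (3.63). Spp1, which codes for osteopontin, a matrix protein made by macrophages, had 10 UMIs in sham and 694 in I/R (5.94). The iron oxidase ceruloplasmin (Cp, 0.32) and the metal reductase Steap4 (0.68) were the lowest of the group. Lrg1, a further acute-phase glycoprotein, was at 24.1 CPM in sham and 197 CPM in I/R (3.48). The fibrinogen genes Fga, Fgb and Fgg had no UMI in sham and at most 2 in I/R, and no ratio is given for them.

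Markers of neutrophils were higher together. These short-lived granulocytes are the earliest leukocytes to enter injured muscle. Of 18 listed markers 10 reached 100 UMIs, mostly through their counts in I/R, and those 10 were at least 2-fold higher. Over the whole list the summed level was 20.5 CPM in sham and 225 CPM in I/R, a relative log2 ratio of 3.90 (3.77 to 4.03). Lcn2 is in this list too and made up a large part of the I/R sum, at 1.51 CPM in sham and 99.8 CPM in I/R. S100a8 and S100a9, adjacent genes for the subunits of calprotectin, were at 3.64 CPM in sham and 34.5 CPM in I/R (3.69) and at 3.87 CPM in sham and 29.7 CPM in I/R (3.38). Il1r2, a decoy receptor for interleukin 1, had 2 UMIs in sham and 327 in I/R. The granulocyte growth factor receptor Csf3r was at 5.26 CPM in sham and 22.96 CPM in I/R (2.57). Hdc, the histamine-producing enzyme, had the lowest ratio of the measured ones (1.07). The defining surface marker Ly6g had no UMI in sham and 2 in I/R, and the granule genes Camp, Ltf and Ngp had 1 UMI each in sham and between 1 and 4 in I/R. Lcn2 is also made by other cells under stress, and the part of neutrophils in the differences of secreted innate genes was not tested.

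Genes listed for recruited monocytes were mostly higher as well, while those of resident macrophages were not as a group. Of 12 monocyte-list genes 9 were measured and 7 were at least 2-fold higher, with a summed level of 90.3 CPM in sham and 231 CPM in I/R (1.80). Arg1, which codes for arginase, had 3 UMIs in sham and 395 in I/R, and Chil3, a chitinase-like protein of activated macrophages, had 5 and 549. Hmox1, the heme-degrading enzyme, was at 2.28 CPM in sham and 28.2 CPM in I/R (4.07), and the adhesive glycoprotein Thbs1 at 4.64 CPM in sham and 33.9 CPM in I/R (3.31), and both are also made by other cells. The chemokine receptor Ccr2, a defining gene of these cells, was at 8.36 CPM in sham and 12.8 CPM in I/R (1.06). Vcan (0.92) and Trem2 (0.33) were the lowest of the measured ones. Most of the summed sham level came from listed genes whose CPM is not given here. The part of monocytes in the sum was not tested. Of 20 measured macrophage markers, 1 was at least 2-fold higher and 2 lower, near the 5.64% and 9.16% of all measured genes. The summed level was 506 CPM in sham and 352 CPM in I/R (-0.08). The endotoxin co-receptor Cd14 was the higher one (1.71), and the tissue macrophage genes Fcrls (-1.90) and Ms4a7 (-2.31) were the lower ones. The mannose receptor Mrc1 was at 53.6 CPM in sham and 35.8 CPM in I/R (-0.14), the lysosomal protease Ctss at 9.68 CPM in sham and 11.7 CPM in I/R (0.71), and Ctsb, a related protease that many cells make, at 152 CPM in sham and 226 CPM in I/R (1.02).

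Chemokines and interleukins are the signals that draw and activate these cells. Of 25 measured members 13 were at least 2-fold higher and 1 lower, with a median of 1.57, and all 34 listed genes summed to 405 CPM in sham and 573 CPM in I/R. The median was 0.94 at a minimum of 20 UMIs, under 2-fold, 1.17 in barcodes with fewer than 200 genes and 2.20 in those with at least 200. Cxcl5, a neutrophil attractant, was at 0.503 CPM in sham and 29.4 CPM in I/R (6.31, interval 5.53 to 7.22). Ccl2, which attracts monocytes, was at 2.79 CPM in sham and 22.6 CPM in I/R (3.46). The interleukin 1 antagonist Il1rn had 3 UMIs in sham and 165 in I/R. A related neutrophil attractant, Cxcl3, singled out after its values were seen, had no UMI in sham and 131 in I/R, at least 38.7-fold higher when 3 counts are taken as the limit that a count of 0 allows. At the other end stood Cxcl16 (-0.88) and Cxcl9 (-1.67), the latter induced by interferon gamma and at 4.92 CPM in sham and 1.13 CPM in I/R.

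Interferon-induced and antigen-presenting genes lay mostly below the median gene, few of them by 2-fold. Of 21 measured interferon-induced genes, 0 were at least 2-fold higher and 3 lower, 2 lay above 0 and the median was -0.67. Ifi44 was lowest, at 8.28 CPM in sham and 2.37 CPM in I/R (-1.36), and the antiviral GTPase gene Gbp3 was at -1.09. The membrane protein gene Ifitm3 (0.68) and Ifi207 (0.29) were the 2 above 0. Of 19 genes of MHC and antigen presentation 4 lay above 0 and the median was -0.35. At least 2-fold lower were 2 of them, a share near the 9.16% of all measured genes, Ciita (-1.67), the transactivator of MHC class II, and the immunoproteasome subunit Psmb9 (-1.27). The invariant chain Cd74 was at 60.8 CPM in sham and 36.8 CPM in I/R (-0.28), and the class I light chain B2m was the highest of the list (0.50). Complement was mixed, with a median of -0.22 over 13 measured genes, the receptor C5ar1 at 1.40, the inhibitor Cd59a at 0.36, the protease C1s1 at -0.74 and the regulator Cd55 at -1.42. The lymphocyte markers were too few to describe as a group, since 1 of 14 reached 100 UMIs. That gene was Ighm, the immunoglobulin M heavy chain, with 367 UMIs in sham and 53 in I/R (-2.97). Over the whole lymphocyte list the summed level was 22.6 CPM in sham and 3.96 CPM in I/R.

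**Figure D2:**
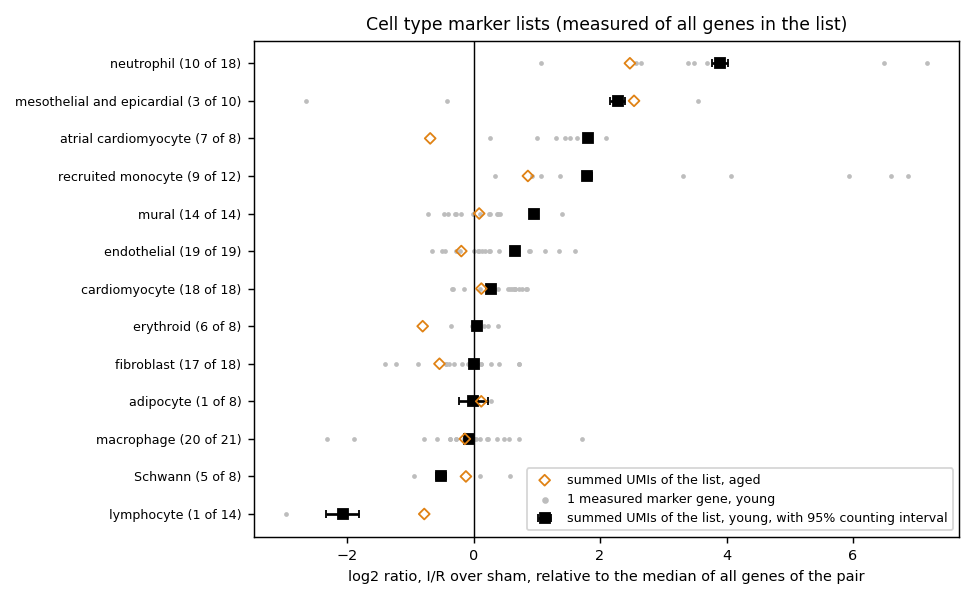
Relative log2 ratio of I/R over sham (horizontal axis) for 13 cell type marker lists. Black squares with bars are the summed UMIs of a list in the young pair with 95% counting intervals, grey points are single measured markers of the young pair, and open orange diamonds are the sums in the aged pair. The neutrophil sum lies highest at 3.90 in young and 2.47 in aged, and the lymphocyte sum lowest at -2.07 in young.

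Most measured genes of the immediate early and glucocorticoid target lists were at least 2-fold higher. Immediate early genes code for transcription factors and feedback regulators that cells switch on within minutes to hours of a stimulus. Of 28 measured, 16 were at least 2-fold higher and 0 lower, beside 5.64% and 9.16% of all measured genes, with a median of 1.25. Fosl1, a Fos-family subunit of the AP-1 factor, had 4 UMIs in sham and 183 in I/R, and the nuclear receptor Nr4a3 had 30 and 401 (3.56). Not every member was higher. Egr1 was at 58.1 CPM in sham and 30.4 CPM in I/R (-0.49), the phosphatase Dusp1 at 49.2 CPM in sham and 26.6 CPM in I/R (-0.44), and Fos, named after its value was seen, had 79 and 157 UMIs (0.82).

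Glucocorticoid receptor targets had a median of 1.93. The glucocorticoid receptor is the transcription factor through which cortisol or corticosterone acts. Of 21 measured members 18 were at least 2-fold higher and 0 lower, beside 5.64% and 9.16% of all measured genes. Lcn2, Mt1 and Mt2 belong to this list too, as do Cdkn1a, Pdk4 and Angptl4, so its count is not separate from theirs. Fkbp5, a co-chaperone that dampens the receptor, was named after its value was seen and was at 13.9 CPM in sham and 65.3 CPM in I/R (2.67). In the aged pair it was at 10.6 CPM in sham and 56.3 CPM in I/R (2.32), higher there too. Klf9 (0.41) and Dusp1 (-0.44) were the lowest of the list. Genes of p53 and growth arrest held 3 of 18 members at least 2-fold higher. Cdkn1a, the cyclin-dependent kinase inhibitor p21, led them at 15.9 CPM in sham and 112 CPM in I/R (3.26, interval 3.11 to 3.41), followed by Gadd45g (2.34), while Bbc3 (-0.22) and Plk2 (-0.27) were the lowest.

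Genes of protein folding and oxidant defence were higher in part. Of 26 heat shock and chaperone genes 7 were at least 2-fold higher, with a median of 0.58. The small heat shock protein Hspb1 was at 148 CPM in sham and 682 CPM in I/R (2.65), and the inducible Hspa1a had 41 UMIs in sham and 263 in I/R (2.51). Hsf1, which codes for the master regulator of these genes, was the lowest of them, at 29.7 CPM in sham and 11.3 CPM in I/R (-0.94). In the unfolded protein and ATF4 response 9 of 25 were at least 2-fold higher. The stress-induced hormone Gdf15 (28 and 227 UMIs, 2.84) and the growth inhibitor Ddit4 (6.73 CPM in sham and 32.2 CPM in I/R, 2.70) were highest, and Trib3 (-0.30) and Ddit3 (-0.68) lowest. Among targets of the antioxidant factor NRF2 8 of 24 were at least 2-fold higher, led by Hmox1 and by sulfiredoxin (Srxn1, 12.2 CPM in sham and 32.2 CPM in I/R, 1.84). The glutathione transferase Gsta3 (-0.12) and the exporter Abcc4 (-0.24) were the lowest. Of 28 genes of iron handling and antioxidant enzymes 25 lay above 0, 7 were at least 2-fold higher and 2 lower, with a median of 0.72. Hepcidin (Hamp), the hormone that blocks iron export, was at 20 UMIs in sham and 216 in I/R (3.26). The lower ones were the transferrin receptor Tfrc, which takes up iron, at 55.7 CPM in sham and 19.2 CPM in I/R (-1.10), and the ferrireductase Steap3 at -1.24.

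The machinery of protein synthesis and degradation lay above the median gene, mostly by less than 2-fold. All 81 measured cytosolic ribosomal protein genes lay above 0 (with total UMIs as the scale, all except Rpl3l), 16 of them at least 2-fold higher, with a median of 0.85. Rpl3 was highest (78.6 CPM in sham and 169.9 CPM in I/R, 1.56), and its muscle paralog Rpl3l was lowest (183 CPM in sham and 149 CPM in I/R, 0.15). Near-identical processed copies can share reads with ribosomal protein genes, so single values are uncertain. Of 22 genes of polyamine synthesis, proliferation and ribosome biogenesis 9 were at least 2-fold higher, led by spermidine synthase (Srm, 2.17) and the translation factor Eif1a (2.07). Those 2 lower were the mitotic genes Mki67, with 271 UMIs in sham and 84 in I/R (-1.87), and Top2a (-1.38). Of 31 proteasome subunits 31 lay above 0 and 4 were at least 2-fold higher, with Psma5 (1.24) and Psma6 (1.19) highest and Psma4 (0.33) and Psma3 (0.29) lowest, these last below 0 with total UMIs as the scale. With total UMIs as the scale the medians of these lists lay lower by the same amount as all others, at 0.41 for ribosomal proteins and 0.30 for the proteasome.

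Genes that cardiomyocytes express under stretch and hypertrophic load were mostly higher. Of 18 measured members 12 were at least 2-fold higher and none lower, with a median of 1.35. Ankrd2, a stretch-responsive ankyrin-repeat protein, had 10 UMIs in sham and 748 in I/R (6.05), and its paralog Ankrd1 was at 1059 CPM in sham and 3042 CPM in I/R (1.97), one of the 10 largest gains in CPM. Ccn2, connective tissue growth factor, was at 20.8 CPM in sham and 139.7 CPM in I/R (3.19). The natriuretic peptide genes Nppa and Nppb, which lie 13516 bases apart on chromosome 4, code for hormones that lower blood volume and pressure. Nppa was at 335 CPM in sham and 1055 CPM in I/R (2.10, interval 2.07 to 2.13), and Nppb at 49.3 CPM in sham and 205 CPM in I/R (2.50). In the aged pair Nppa was at 821 CPM in sham and 379 CPM in I/R (-1.20), the other way round, while Nppb was at 124 CPM in sham and 132 CPM in I/R (0.00). Ankrd23 (0.37) and the tubulin gene Tuba8 (-0.10) were the lowest.

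Nppa is also a marker of atrial cardiomyocytes, and most other measured genes of that list were higher too. Of 8 listed genes 7 were measured and 5 were at least 2-fold higher, among them the atrial myosin light chains Myl4 (48.2 CPM in sham and 87.2 CPM in I/R, 1.30) and Myl7 (48.8 CPM in sham and 97.6 CPM in I/R, 1.44). Clu, which other cells also make, was at 1.63, and Stard10 (0.998, just under 2-fold) and Dkk3 (0.26) were the lowest. Bmp10, an atrial gene, had 1 UMI in sham and none in I/R. The list summed to 738 CPM in sham and 1911 CPM in I/R (1.82). In the aged pair it summed to 1348 CPM in sham and 888 CPM in I/R (-0.69), of which Nppa made up 821 and 379 CPM. The aged median of the list was -0.62, with Sln at -0.84, Myl7 at -0.62, Myl4 at -0.23 and Clu at -0.02. The part of atrial tissue in the Nppa difference was not tested in either pair.

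The contractile genes themselves mostly lay above the median gene, by less than 2-fold. None of the 18 cardiomyocyte markers passed 2-fold, and 15 lay above 0. Their median was 0.56, close to the 0.55 of the citric acid cycle genes, and their summed level was at 0.28. They ranged from -0.34 (Ryr2, the calcium release channel) to 0.85 (Actn2, the Z-disc crosslinker). Titin (Ttn), the molecular spring of the sarcomere, was at 31744 CPM in sham and 18615 CPM in I/R (-0.33), and the heavy chain Myh6 at 15323 CPM in sham and 13675 CPM in I/R (0.28). Both belong to the 10 largest losses in CPM, where Myh6 still lies above the median gene because that gene's CPM was lower by more, and Tnnt2 (0.21) and Pln (-0.16) are in the same set. Of 28 sarcomere and Z-disc genes 2 were at least 2-fold higher, a share near the 5.64% of all measured genes. They were Synpo2l (74.7 CPM in sham and 223 CPM in I/R, 2.02) and myotilin (Myot, 1.08). The lowest were nebulin (Neb, -0.55) and Myom3 (-0.70). Among 21 calcium cycling genes, sarcolipin (Sln), an inhibitor of the calcium pump, was higher (21.3 CPM in sham and 45.2 CPM in I/R, 1.53), followed by calmodulin 2 (Calm2, 0.87). The inositol trisphosphate receptor Itpr1 (118 CPM in sham and 40.5 CPM in I/R, -1.11) and the calcium channel subunit Cacnb2 (144 CPM in sham and 49.00 CPM in I/R, -1.11) were lower. With 1 calcium cycling gene past 2-fold higher and 2 lower, the list lay near the 5.64% and 9.16% of all measured genes.

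Genes of energy metabolism lay above the median gene as a whole, with a few regulators far outside the rest. Pdk4 codes for a kinase that shuts pyruvate dehydrogenase and so keeps glucose carbon out of the citric acid cycle. It lies at chr6:5483351-5496309 on the minus strand and was at 76.3 CPM in sham and 533 CPM in I/R, a ratio of 3.25 (3.18 to 3.31), or 9.49-fold. In the aged pair it was at 39.1 CPM in sham and 35.2 CPM in I/R (-0.24). Of 25 targets of the fatty acid sensor PPAR alpha 7 were at least 2-fold higher and none lower. They were led by Pdk4 and by Angptl4, an inhibitor of lipoprotein lipase (11.03 CPM in sham and 61.4 CPM in I/R, 2.92), both glucocorticoid targets as well. The fatty acid importer Cd36 (1.35) and the lipid droplet proteins Plin2 (1.80) and Plin4 (1.08), named after their values were seen, were among the others. Cpt1a (-0.29) and Ucp3 (0.21) were the lowest. Nmrk2, a muscle kinase that makes NAD from nicotinamide riboside, was at 17.7 CPM in sham and 133 CPM in I/R (3.35).

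The enzymes that carry out oxidation differed by less and lay close together. None of 20 beta-oxidation genes passed 2-fold, 19 lay above 0 and the median was 0.62, with Acads (0.94) and Decr1 (0.85) highest and Cpt1b (0.21) and Cpt1a lowest. All 20 citric acid cycle genes lay between 0.13 (Dlst) and 0.71 (Mdh2), with Idh2 at 0.68 and Idh3b at 0.28. The 73 nuclear genes of the respiratory chain lay between 0.22 (Cox8a) and 0.89 (Atp5g3), with a median of 0.62. Atp5a1 was at 0.88 and Atp5g1 at 0.34. The 13 genes of the mitochondrial genome lay between 0.24 (mt-Nd2) and 1.18 (mt-Co1), and 3 of them passed 2-fold, mt-Co1, mt-Co3 (1.05) and mt-Nd3 (1.04). Mitochondrial transcripts gained the most CPM after a ribosomal RNA gene model, with mt-Co1 at 23095 CPM in sham and 38451 CPM in I/R and mt-Co3 at 16808 CPM in sham and 25646 CPM in I/R. The aged medians had the opposite sign, -0.50 for the nuclear and -0.45 for the mitochondrial genes. With total UMIs as the scale the young medians remained above 0, at 0.18 and 0.41.

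Glycolysis had 3 of 21 genes at least 2-fold higher. The lactate exporter Slc16a3 had 41 UMIs in sham and 219 in I/R (2.24), and the glucose transporter Slc2a1 had 134 and 401 (1.41). Pgk1, the glycolytic kinase, was the third (1.03). Hexokinase 2 (Hk2) was the lowest, at 354 CPM in sham and 159 CPM in I/R (-0.71), and Eno1 was at -0.16. Hk2 is also a target of hypoxia-inducible factors, whose list was split. Of 23 measured members 4 were at least 2-fold higher, led by Ddit4 and Slc2a1, and 1 was lower, the angiogenic growth factor Vegfa, at 512 CPM in sham and 132 CPM in I/R (-1.52, interval -1.56 to -1.47). The next lowest was Pfkfb4 (-0.97). In creatine kinase and energy transfer none of 16 was 2-fold higher, from Vdac2 (0.82) and myoglobin (Mb, 0.72) down to brain creatine kinase (Ckb, -0.08) and Gatm, the rate-limiting enzyme of creatine synthesis (126 and 44 UMIs, -1.69).

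**Figure D3:**
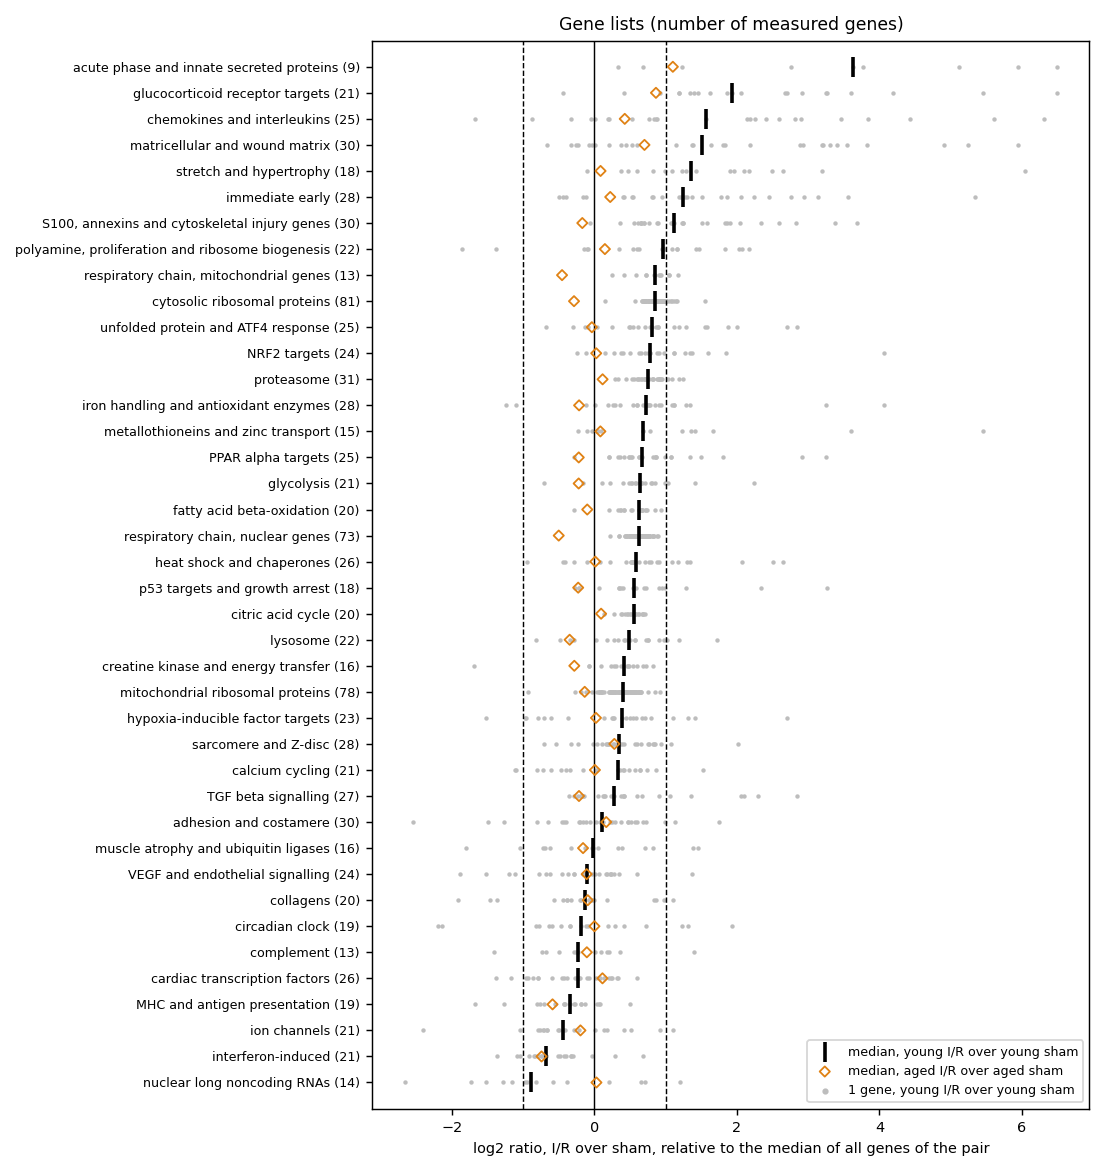
Relative log2 ratio of I/R over sham (horizontal axis) for the 40 gene lists, ordered by the young median, with the number of measured genes in brackets. Grey points are single measured genes of the young pair, black bars the young medians and open orange diamonds the aged medians, with dashed lines at 2-fold. Medians run from 3.63 for acute phase proteins to -0.89 for nuclear long noncoding RNAs, and the members of the respiratory chain lists lie close together.

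Wound matrix genes were higher while fibrillar collagens were not. Matricellular proteins and proteases reshape the matrix during repair, before collagen accumulates. Of 30 measured genes 18 were at least 2-fold higher and none lower, with a median of 1.505. Timp1, the tissue inhibitor of metalloproteinases, was at 3.41 CPM in sham and 75.3 CPM in I/R (4.91, interval 4.604 to 5.23). Its gene (chrX:20870166-20874735, plus strand) lies within Syn1 on the opposite strand. Osteopontin and tenascin C (Tnc, 5.24), which loosens cell adhesion, had the highest ratios. The gelatinase Mmp2 (-0.33) and Ccn5 (-0.66) were the lowest. Of 20 collagen genes 1 was at least 2-fold higher, the basement membrane chain Col4a1 (204 CPM in sham and 321 CPM in I/R, 1.10), followed by Col12a1 (0.97). The 3 lower ones were Col4a4 (-1.92), Col4a3 (-1.46) and Col14a1 (-1.37). Of all measured genes, 5.64% were higher and 9.16% lower by 2-fold. The scar collagens Col1a1 (44.2 CPM in sham and 32.4 CPM in I/R, -0.01), Col1a2 (-0.19) and Col3a1 (134 CPM in sham and 75.4 CPM in I/R, -0.39) lay near or below the median gene, as did Col6a2 (-0.44).

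Fibroblast markers differed little as a group. Their summed level was 1652 CPM in sham and 1215 CPM in I/R (0.00). This sum rests in large part on Gsn, at 568 CPM in sham and 505 CPM in I/R (0.27). The median of the measured markers was -0.10, and 6 of them lay above 0. Of 17 measured markers 2 were at least 2-fold lower, a share near the 9.16% of all measured genes. These were Pdgfrl (-1.23) and the transporter Abca8a (119 CPM in sham and 33.1 CPM in I/R, -1.40). The receptor Pdgfra, a defining marker, was at 35.8 CPM in sham and 34.9 CPM in I/R (0.40), and Mfap5 (0.71) and Loxl1 (0.71) were highest. Of 27 genes of TGF beta signalling, which drives fibroblast activation, 6 were at least 2-fold higher. Gdf15, a distant ligand of the family, and the activin antagonist Fstl3 (5.11 CPM in sham and 18.4 CPM in I/R, 2.29) were highest, and Tgfb3 (-0.29) and the inhibitor Smad7 (-0.36) lowest. Prg4, which codes for the lubricating protein of joints and serous membranes, was at 10.3 CPM in sham and 87.99 CPM in I/R (3.54, interval 3.36 to 3.73). In aged ventricle it was at 12.4 CPM in sham and 137 CPM in I/R (3.37). It was listed as a mesothelial marker, of which 3 of 10 were measured, and the others, Wt1 (-0.42) and Muc16 (111 and 20 UMIs, -2.65), lay below 0. The defining gene Msln had 33 UMIs in sham and 50 in I/R.

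Cytoskeletal and injury genes were broadly higher. Of 30 S100, annexin and cytoskeletal genes 29 lay above 0 and 18 were at least 2-fold higher, with a median of 1.11. S100a8 and S100a9 led them, and Anxa3 (0.36) and Actg1 (-0.06) were the lowest. In the lysosome list 3 of 22 were at least 2-fold higher, the tetraspanin Cd63 (60.6 CPM in sham and 147 CPM in I/R, 1.72) and the cathepsins Ctsl (1.19) and Ctsb, and the lowest were Ctsc (-0.49) and the cholesterol transporter Npc1 (-0.82). Adhesion and costamere genes, which anchor the sarcomere to the membrane, had a median of 0.10. Of 30 measured, 2 were at least 2-fold higher and 3 lower, near the shares of all measured genes (5.64% and 9.16%). Itga5, the fibronectin receptor subunit, was at 32.2 CPM in sham and 79.6 CPM in I/R (1.75) and its partner Itgb1 at 1.13, while Ctnna3 (-1.499) and Itgb6 (28.8 CPM in sham and 3.60 CPM in I/R, -2.55) were lowest. Of 16 genes of muscle atrophy and ubiquitin ligases 2 were at least 2-fold higher and 2 lower, around a median of -0.03. Trim54 (181 CPM in sham and 365 CPM in I/R, 1.46) and polyubiquitin Ubb (1.39) were higher, and Kbtbd12 (77.5 CPM in sham and 16.4 CPM in I/R, -1.80) and Trim55 (49.3 CPM in sham and 17.5 CPM in I/R, -1.05) lower.

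The median endothelial marker lay slightly above the median gene, and 4 genes of the VEGF list were lower. The 19 endothelial markers summed to 2549 CPM in sham and 2938 CPM in I/R (0.65). This sum rests in large part on Cd36, at 615 CPM in sham and 1151 CPM in I/R. The median of the 19 was 0.18, and 3 were at least 2-fold higher. These were Ly6c1 (72.7 CPM in sham and 161 CPM in I/R, 1.60), whose paralog Ly6c2 marks monocytes and can share its reads, Cd36, which cardiomyocytes and macrophages also express, and Rgcc (20.2 CPM in sham and 32.2 CPM in I/R, 1.12). The junctional cadherin Cdh5, a defining gene, was at 67.5 CPM in sham and 52.00 CPM in I/R (0.07, interval -0.03 to 0.16), so it lay at the median gene within counting error. Emcn (-0.50) and Egfl7 (-0.67) were the lowest. Of 24 genes of VEGF and endothelial signalling 11 lay above 0 and the median was -0.10, so the list as a whole lay near the median gene. At least 2-fold higher was 1 of them and lower were 4, beside 5.64% and 9.16% of all measured genes. The higher one was placental growth factor (Pgf, 13.97 CPM in sham and 26.5 CPM in I/R, 1.37). Those 4 lower were the ligands Vegfa and Vegfd (-1.19), the co-receptor Nrp1 (291 CPM in sham and 98.6 CPM in I/R, -1.12) and the apelin receptor Aplnr (18.1 CPM in sham and 3.58 CPM in I/R, -1.89). Notch4 was at 0.60. Mural cells, the pericytes and smooth muscle around vessels, summed to 0.95, which rests on desmin (Des, 1185 CPM in sham and 2304 CPM in I/R, 1.40), a gene of cardiomyocytes as well. The median of the 14 mural markers was 0.04, with Acta2 at 0.42, Vtn at -0.47 and Kcnj8 at -0.73.

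**Figure D4:**
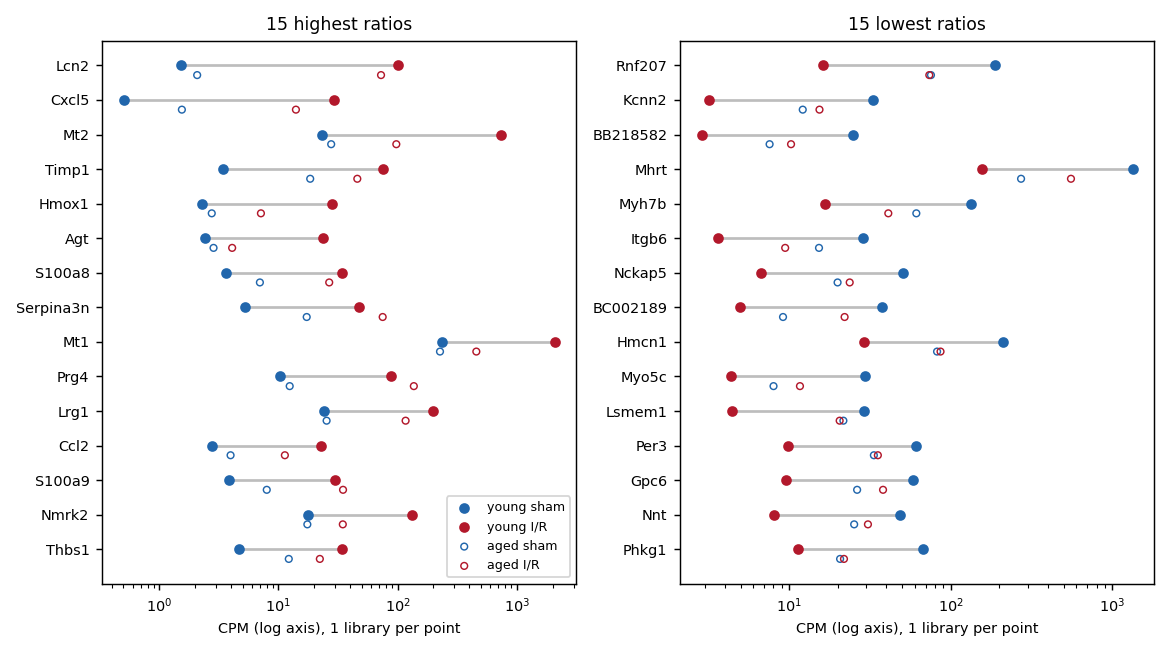
CPM on a log axis for the 15 highest (left) and 15 lowest (right) named genes. Filled blue and red points are the young sham and young I/R libraries, joined by a line, and small open points below them are the aged libraries. On the left each aged I/R point lies to the right of its aged sham point, at a shorter distance than in the young pair except for Prg4, and on the right most aged pairs lie close together, as for Rnf207 at 75.5 and 73.7 CPM.

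The lowest ratios among genes that reached 20 CPM included genes of cardiomyocyte excitability and contraction. Rnf207 (chr4:152307019-152318993, minus strand), a ubiquitin ligase known for its link to the QT interval, was at 189 CPM in sham and 16.3 CPM in I/R, a ratio of -3.09 (-3.21 to -2.98). Kcnn2, a calcium-activated potassium channel, was at 32.98 CPM in sham and 3.18 CPM in I/R (-2.93). Mhrt, a long noncoding RNA read from the opposite strand of Myh7 (chr14:54968678-54974349, plus strand), was at 1343 CPM in sham and 156 CPM in I/R (-2.66). Myh7 itself was at 72.3 CPM in sham and 93.9 CPM in I/R (0.82). Use of the strand in counting is not stated, so reads of the overlapping pair could in part be exchanged. Myh7b, a slow myosin whose gene hosts a microRNA, was at 134 CPM in sham and 16.7 CPM in I/R (-2.56). Nnt, which makes NADPH in mitochondria and carries a known deletion in C57BL/6J, was at 48.8 CPM in sham and 8.09 CPM in I/R (-2.15). The other low genes were Hmcn1, a basement membrane protein (212 CPM in sham and 28.9 CPM in I/R, -2.43), Itgb6, Nckap5 (-2.49), Myo5c, a myosin motor (-2.31), Lsmem1 (-2.28), the heparan sulfate proteoglycan Gpc6 (-2.18), the glycogen-mobilizing kinase subunit Phkg1 (67.7 CPM in sham and 11.3 CPM in I/R, -2.14), and the transcripts BB218582 (-2.67) and BC002189 (-2.49), the latter within Trim55. In the aged pair none of these 15 genes passed 2-fold in the same direction. Their aged ratios lay between -0.78 (Itgb6) and 1.18 (BC002189). Their genomic spans ran from 598 bases (BC002189) to 1051230 bases (Gpc6). Ratios varied with span, as described below, and the part of span in these low ratios was not tested.

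Of 21 listed ion channels 7 lay above 0, 2 were at least 2-fold lower and the median was -0.44. Of 26 cardiac transcription factors 9 lay above 0, 2 were at least 2-fold lower and the median was -0.23. Both shares of lower genes lay near the 9.16% of all measured genes. The chloride channel Clcn1 (485 and 103 UMIs, -2.41) was lowest, and Kcna5, which carries the ultrarapid potassium current, was higher (1.10), followed by the connexin Gja5 (0.92). Gja1, the main ventricular connexin, was named after its value was seen and was at 294 CPM in sham and 131 CPM in I/R (-0.73). Among the transcription factors none was 2-fold higher, and the lower ones were the ventricular factor Irx4 (28.2 CPM in sham and 9.17 CPM in I/R, -1.18) and the mitochondrial coactivator Ppargc1b (97.3 CPM in sham and 27.4 CPM in I/R, -1.38). Nkx2-5 (0.60) and Foxo3 (0.33) were the highest.

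Clock genes lay on both sides of the median gene. Among all measured genes 5.64% were higher and 9.16% lower by 2-fold. Of 19 clock genes 3 were at least 2-fold higher, Per1 (14.6 CPM in sham and 41.04 CPM in I/R, 1.93), Cry1 (1.32) and the repressor Nfil3 (1.23), and 2 were lower, Per3 (60.8 CPM in sham and 9.81 CPM in I/R, -2.19) and the output factor Dbp (77.1 CPM in sham and 12.9 CPM in I/R, -2.14). Per1 is also a glucocorticoid target. The time of day at which the ventricles were collected was not given in the sources used here. In the aged pair Dbp was at -0.96 and Per3 at 0.00.

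Noncoding genes were mostly lower, counted gene by gene. Their summed share of UMIs was not lower, at 21.4% in sham and 24.1% in I/R. Of 654 measured noncoding genes 49.4% were at least 2-fold lower and 3.21% higher, with a median of -0.99, compared with 0.03 for 11806 protein-coding genes. Transcripts annotated within introns in sense were lowest, with a median of -1.35 over 89 genes and 80.9% of them at least 2-fold lower, followed by processed transcripts (-0.96, 140 genes), antisense RNAs (-0.95, 176) and lincRNAs (-0.78, 200). Gene models named only by a Gm or Rik number made up 750 of the measured genes, and 317 of them (42.3%) were at least 2-fold lower. Malat1, an abundant nuclear RNA, was at 73436 CPM in sham and 22223 CPM in I/R (-1.28), the largest loss in CPM of all genes. Of 14 listed nuclear noncoding RNAs 5 were at least 2-fold lower, with the imprinted Rian (-1.73) and Mhrt lowest. Gm42418 (114867 CPM in sham and 194138 CPM in I/R, 1.20), an annotated gene over ribosomal RNA sequence, and Pvt1 (0.71) were the highest. Gm42418 and the overlapping AY036118 (8345 CPM in sham and 14911 CPM in I/R, 1.28) were among the 10 largest gains. In aged ventricle the medians of these classes were above 0, 0.20 for sense intronic and 0.31 for antisense genes, and Malat1 was at 0.50.

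The ratio also varied with the length of a gene on the chromosome. Among 11793 protein-coding nuclear genes split into 10 equal groups by genomic span, the median ratio went from 0.44 in the shortest group (median span 3.26 kb) to -0.37 in the longest (207 kb), passing through 0.09 in the fifth and -0.10 in the eighth. In the shortest group 12.5% were at least 2-fold higher and 3.22% lower, and in the longest 2.20% were higher and 15.1% lower. Without ribosomal protein genes the shortest group, then 1090 genes, had a median of 0.40. Across genes, which are not independent replicates and share the 2 libraries, Spearman's correlation of ratio and span was -0.29 in the young pair and 0.28 in the aged pair, where the medians went from -0.25 to 0.17. With the total length of a gene's exons in place of its span, the correlation in the young pair was stronger, at -0.38. Which of the 2 lengths the ratio follows was not tested, and genes were not centred on exon length. Malat1, a noncoding RNA which stays within nuclei, was at -1.28 in the young and 0.50 in the aged pair, the signs of the longest group. Its own span is 6983 bases, within the range of the second shortest group, whose medians were 0.25 in young and -0.19 in aged. Malat1 therefore did not follow its span, and the part of nuclear RNA content in the span pattern was not tested.

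**Figure D5:**
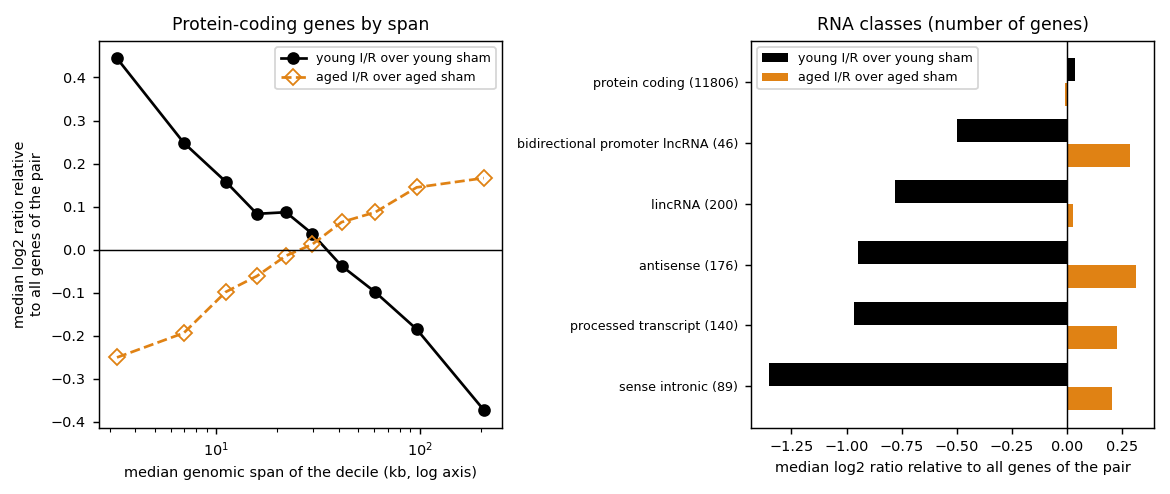
Left, median relative log2 ratio (vertical axis) of 10 groups of protein-coding genes against their median genomic span in kb (log axis). Right, median relative log2 ratio (horizontal axis) of RNA classes, with the number of genes in brackets. Black marks the young and orange the aged pair, each as I/R over sham. The young line runs from 0.44 down to -0.37, the aged line from -0.25 up to 0.17, and the noncoding classes lie below 0 in young and above 0 in aged.

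When each protein-coding gene was instead centred on the median of its own span group, 590 were at least 2-fold higher and 838 lower, compared with 679 and 817 before. Of these, 519 and 642 were the same genes. The medians went from 3.63 to 3.32 for acute phase proteins, from 1.93 to 1.72 for glucocorticoid targets and from 1.505 to 1.53 for wound matrix. Those of other lists moved toward 0, from 1.25 to 0.82 for immediate early genes and from 1.11 to 0.74 for S100 and cytoskeletal genes, both then under 2-fold, from 0.85 to 0.46 for ribosomal proteins and from 0.62 to 0.34 for the nuclear respiratory chain.

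Promoters of the higher genes were searched for 9 known motifs in the 250 bases before the RefSeq start, on both strands, among 9350 measured protein-coding genes. AP-1, the factor that Fos and Jun proteins form, has the letters TGANTCA. At least 1 match was present in 4.13% of all these promoters, in 8.73% of the 527 genes at least 2-fold higher, in 13.7% of the 117 at least 4-fold higher, and in 5.40% of the 611 at least 2-fold lower. Genes at least 4-fold higher that hold a match and reached 20 CPM include Mt2, Fgl2, Cnksr1 and Klhl40, whose matches are printed with their flanks, 5′ to 3′ on the strand of the gene (GRCm38.p6), the match in capitals.
Mt2 (chr8:94172529-94172555, plus strand): aaagggggtgTGACTCAgcgcgggggg
Fgl2 (chr5:21372647-21372672, plus strand): tcagaacgccTGAGTCAggcggcggt
Cnksr1 (chr4:134238553-134238579, minus strand): ccggactgccTGAGTCAcacacccctt
Klhl40 (chr9:121777553-121777579, plus strand): cccccatagcTGACTCAaggctgctca
The matches begin 79, 16, 170 and 44 bases before the start. Fgl2, a prothrombinase of immune cells, was at 17.9 CPM in sham and 116 CPM in I/R (3.14), the scaffold gene Cnksr1 at 5.65 CPM in sham and 20.01 CPM in I/R (2.27) and Klhl40, which stabilizes thin filament proteins, at 15.6 CPM in sham and 49.4 CPM in I/R (2.11). They are named after their values were seen.

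Smaller differences in percentage points were found for the other motifs, with no test. They were the STAT site TTCNNNGAA (6.07% of 2-fold higher against 5.80% of all), the antioxidant response element TGACNNNGC (14.2% against 11.98%), the E-box CACGTG (10.6% against 8.57%), the hypoxia response element ACGTG (22.6% against 22.1%), the cyclic AMP response element TGACGTCA (1.90% against 2.80%) and the heat shock element (0.759% against 0.321%). Promoters with the MRE letters are counted above. The letters of the E-box contain those of the hypoxia response element, and those of AP-1 and of the antioxidant response element can overlap. The full glucocorticoid response element was not found in these windows. A match describes letters only, and no binding was measured.

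Fewer genes passed 2-fold in the aged pair. The aged pair has no library in common with the young pair. Of its 13722 measured genes 381 (2.78%) were at least 2-fold higher and 277 (2.02%) lower. Across the 12449 genes measured in both pairs, Pearson's r of the ratios was 0.03 and Spearman's rho -0.13, a description across genes. Of the 692 young higher genes measured in the aged pair, 82 (11.8%) were at least 2-fold higher there and 13 lower, and 412 (59.5%) lay above 0, against 49.9% of all genes. Of the 1139 young lower genes 39 (3.42%) were at least 2-fold lower in the aged pair, 67 were higher, and 466 (40.9%) lay below 0. The largest young ratios were also above 0 in the aged pair for the most part. Of the 150 genes at least 4-fold higher in young and measured in aged, 58 were at least 2-fold higher there, and their median was 0.79.

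Neutrophil and acute-phase genes were higher in both pairs, while stretch, lipid and chaperone genes had medians near 0 or below in the aged pair. The neutrophil sum was at 2.47 in the aged pair, and acute phase proteins had a median of 1.10. Lcn2, which is in both lists, made up 72.6 of the 191 CPM of the neutrophil sum in aged I/R. Arg1 was at 6.87 in young and 6.87 in aged, Prg4 at 3.54 and 3.37, and Lcn2 at 6.49 and 5.04. For stretch genes the medians were 1.35 and 0.09, for PPAR alpha targets 0.67 and -0.22, for chaperones 0.58 and 0.01, and for S100 and cytoskeletal genes 1.11 and -0.17. Interferon-induced genes lay below 0 in both, at -0.67 and -0.74. With 1 library for each condition the difference between ages was not tested.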

How the data were processed

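The authors processed the 10x libraries with Cell Ranger 6.0.2 against mm10, per the labels, and deposited filtered matrices of raw UMI counts, 1 per library. The annotation release and the use of strand in counting were not given in the sources used here. Counts were summed per gene over all deposited barcodes with no further filter, scaled to CPM, and compared as log2 ratios relative to the median of all genes with at least 100 UMIs in the pair. Intervals are exact 95% binomial intervals of the ratio and cover counting error only, and genes at 0 in a library were set to 3 counts. Symbols with 2 gene IDs were assigned the ID with more UMIs. Gene types, positions and spans came from GENCODE M21, and promoters from RefSeq (GRCm38.p6).

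With 1 library per condition no test was made. "Higher" and "lower" with a fold mean 2-fold or more on the relative scale. The members and gene lists were chosen with earlier results of these data known. The genes named were the 15 highest and 15 lowest ratios among genes that reached 20 CPM and are not gene models, the 10 largest gains and losses in CPM, the 2 highest and 2 lowest measured genes of each list described, and 19 genes the study names. Others, including those of the sequence windows, were chosen after their values were seen. Not every gene that the rule would name is reported here.

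Alternatives were (beside centring on the span group, chosen after seeing the data) total UMIs or a trimmed mean as the scale, minimums of 20 and 500 UMIs, thresholds of 1.5-fold and 4-fold, barcodes with at least or fewer than 200 genes, and barcodes held by a single library. On data simulated for this comparison (12572 genes, 200 of them changed), 100% of the changed genes fell on the right side of 2-fold. Of the intervals, which cover counting error only, 95.6% held the true ratio. Recovery of genes that differ by close to 2-fold was not tested, and neither was variation between libraries of the same condition. Scripts ran in Python 3.11.15 with numpy 2.4.6, scipy 1.17.1, pandas 2.3.3 and matplotlib 3.10.9.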

Additional observations from a re-analysis of the deposited data

Results flagged for a closer look

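The following genes are among those that passed 2-fold in opposite directions in the young and the aged pair. In all, 13 genes were higher in young and lower in aged, and 67 were lower in young and higher in aged. For each gene given here the difference between the pairs was not tested. BC002189 was at 37.7 CPM in young sham and 4.94 CPM in young I/R (relative log2 ratio -2.49), and at 9.16 CPM and 22.0 CPM in the aged libraries (1.18). Trim55, a muscle ubiquitin ligase on the same strand whose gene contains BC002189, was at 49.3 CPM in young sham and 17.5 CPM in young I/R (-1.05), and at 20.99 CPM and 59.8 CPM in the aged libraries (1.42). The mitochondrial transcript mt-Co3 was at 16808 CPM and 25646 CPM in young (1.05) and at 31884 CPM and 14052 CPM in aged ventricle (-1.27). Nppa was at 335 CPM and 1055 CPM in young (2.10) and at 821 CPM and 379 CPM in aged ventricle (-1.20). The atrial marker list, which holds Nppa, had a median of 1.44 in young and -0.62 in aged, so Nppa did not differ alone.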

How the results depend on the processing

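With 1 library per condition no library could be left out. No paired analysis was possible because each condition has a single library. With total UMIs as the scale 303 genes were at least 2-fold higher and 2748 lower, against 703 and 1142. At a minimum of 20 UMIs the numbers were 1198 and 1937, and at 500 UMIs 392 and 615. Barcodes with fewer than 200 genes gave 457 higher genes. At 1.5-fold the numbers were 2188 and 2614, at 4-fold 157 and 159, and 636 genes lay below 2-fold with their whole interval. The median log2 ratio of CPM was -0.30 without the 13 mitochondrial genes, Gm42418 and Malat1, against -0.44. Fewer genes tested or a moved threshold account by construction for the changes with the UMI minimum and the fold, and for the others the cause was not tested. A trimmed mean as the scale, barcodes with at least 200 genes and barcodes held by a single library moved both numbers by less than 1.5 times. The 30 genes at the ends of the ranking stayed past 2-fold under total UMIs and the 3 barcode selections. The size of single ratios did depend on the barcodes. Nmrk2 was at 2.74 in barcodes with at least 200 genes and at 4.07 in those with fewer, S100a9 at 4.11 and 2.90, and Rnf207 at -3.59 and -2.59. Of the 40 list medians 30 lay above 0, and 23 with total UMIs as the scale. Depth limits the ratios of genes near 100 UMIs, and genes below that were not compared.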
